A study of Drosophila melanogaster with 34 samples.

Results

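The transposon DNA of one Drosophila melanogaster cell line was described from the chromatin inputs of its control cells. The line is OSC, ovarian somatic cells, a culture of follicle-cell origin. An input is the sheared chromatin DNA sequenced without an antibody, so its reads sample the DNA of the cells themselves. The members were chosen by label: the 3 inputs of cells given siRNA against EGFP, a sequence fly cells lack, out of 34 samples in 25 groups. All 129 transposon consensus sequences of the tables were used, and none was left out of the description.

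The study depleted Piwi, the linker histone H1, Maelstrom (Mael) or heterochromatin protein 1a (HP1a) by siRNA and measured RNA, chromatin accessibility, bound proteins and Piwi-bound small RNAs over transposons. Besides the 3 control inputs there were 4 knockdown inputs, 1 each from cells given siRNA against Piwi, H1, Mael and HP1a. All 7 inputs come from OSC grown at 26 degrees, with chromatin sonicated to about 300 bases and libraries sheared to about 200. The titles number the inputs by sample: number 1 holds the Piwi, H1 and control inputs, number 2 the Mael and control inputs, and number 3 the HP1a and control inputs. Nothing in the labels says whether numbers stand for separate cultures, so p-values of the linear models (limma) measure only the spread between these samples, which may be technical. Those of the chi-square test compare reads with counting error alone. The tables hold transposons and no genes, so neither the follicle-cell identity nor the depletions could be checked on genes, and no single-copy gene was there to turn DNA levels into copies per cell.

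Transposons fall into groups by how they move. LTR retrotransposons (the gypsy, BEL/Pao and copia groups) and non-LTR retrotransposons (the jockey and I clades, the R elements of the ribosomal DNA and the telomeric elements) are copied through RNA, while DNA transposons are excised and reinserted by a transposase. In follicle cells the Piwi pathway, guided by small RNAs from the flamenco cluster, is known to silence gypsy-group elements such as gypsy, ZAM and Idefix.

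Levels are in RPKM, reads scaled by consensus length and by library size, so elements of different length can be compared. Whole reads could be recovered from the values, with totals of 3870079, 1959117 and 4140433 reads in control inputs 1, 2 and 3. The knockdown inputs held 3842228 reads (Piwi), 3048145 (H1), 1560307 (Mael) and 4266312 (HP1a). Transposons took 9.39%, 9.04% and 9.50% of the reads of the control inputs, a mean of 9.31% ± 0.241 (SD, n = 3). The 95% Wilson interval of a single library spanned at most 0.0803 percentage points among the control inputs, so this spread was wider than counting error. Wilson intervals, and the Poisson intervals and limits given for rare elements, cover counting error only, since PCR reads are not independent molecules.

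A few elements held most of the reads assigned to the transposon consensus sequences. Whether reads of diverged copies are among them is not known, so these are not shares of all transposon DNA. The median element stood at 37.6 RPKM, 11 elements exceeded 10 times that level, and 8 elements held 50% of all transposon reads. The top element alone held 13.4%, the top 5 held 39.0%, the top 10 held 55.0% and the top 20 held 73.2%. Across the 128 elements with a length, level and consensus length had a Spearman correlation of 0.38, given as a description.

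The highest element was Gypsy1, a gypsy-group LTR retrotransposon. It had 1938, 1609 and 1719 RPKM in control inputs 1, 2 and 3, a mean of 1755 ± 167 (SD, n = 3). That is 46.7 times the median element, and its lowest library was above the highest library of every other element. FW, the non-LTR F element, followed with 1059, 952 and 1015 RPKM. COPIA, the LTR element that names the copia group, had 907, 1021 and 1040 RPKM. The order of the control inputs differed between them: input 1 was the highest for FW and the lowest for COPIA. GYPSY, the gypsy element proper, had 989, 880 and 925 RPKM. DOC, a jockey-clade non-LTR element, had 919, 879 and 916 RPKM. ROO, a BEL/Pao-group LTR element, had 778, 945 and 941 RPKM. From FW to ROO, each element's range overlapped that of its neighbour in the order, although all 3 values of FW were above the highest value of DOC and of ROO.

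R1, a non-LTR element that inserts into the 28S ribosomal RNA genes, came next with 747, 571 and 668 RPKM, all below the lowest value of ROO and above the highest of BLASTOPIA. BLASTOPIA, of the gypsy group, had 541, 514 and 533 RPKM. DOC6 (443 ± 93.9), DMRT1B (422 ± 66.5), BARI (412.5 ± 34.5), PROTOP_A (350 ± 43.7) and STALKER4 (339 ± 45.7 RPKM, SD, n = 3 each) overlapped pair by pair down the order. BARI and PROTOP_A were the only DNA transposons among the top 20; BARI belongs to the Tc1/mariner superfamily, and Protop elements are relatives of the P element. The I element, whose mobilization causes hybrid dysgenesis, had 312, 311 and 325 RPKM, and all 3 values were just above the highest value of Jockey, 309.8 RPKM. The last 6 of the top 20 were Jockey, DM297, BLOOD, NOMAD, DM176 and DM412, with means between 287 and 243 RPKM. Of the 20 boundaries between an element of the top 20 and the next one down, ranges did not overlap at 4: below Gypsy1, ROO, R1 and I.

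**Figure D1:**
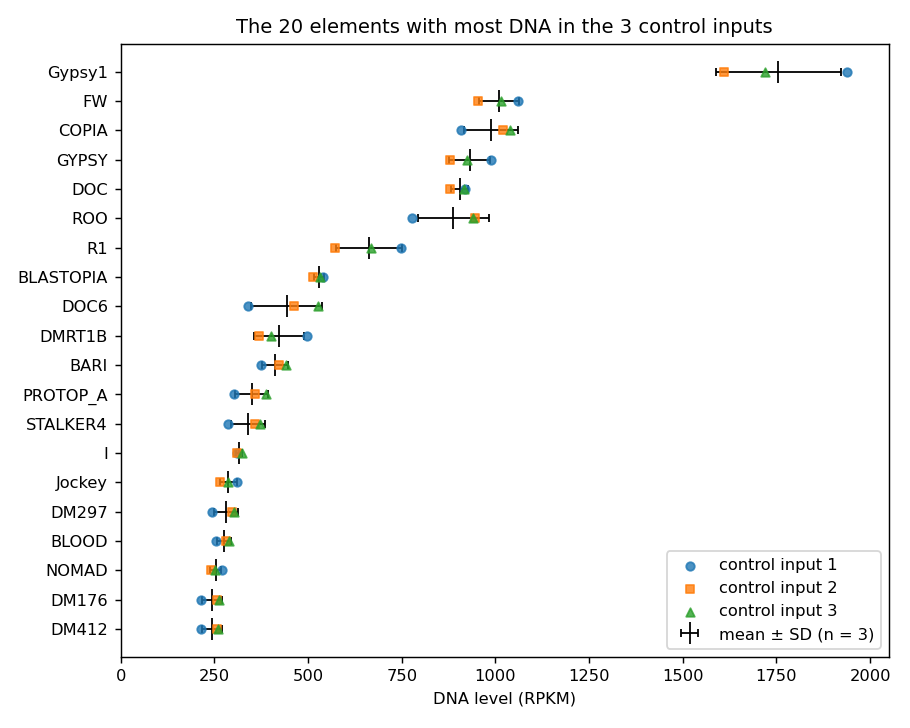
DNA level in RPKM on a linear axis of the 20 elements with the highest mean, with 1 symbol for each of the 3 control inputs and the mean ± SD. Gypsy1 lies between 1609 and 1938 RPKM, apart from the rest, and control input 1 is often the highest or the lowest of the 3.

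By class, LTR retrotransposons dominated the reads assigned to these consensus sequences. The 65 LTR elements held 70.1%, 72.3% and 71.5% of the transposon reads in control inputs 1, 2 and 3. The 38 non-LTR elements held 27.9%, 25.4% and 26.2%, and the 19 DNA transposons 1.83%, 2.06% and 2.09%. This order of the 3 types was the same in each control input. The gypsy group, with 53 elements, made up 52.9% ± 0.207 of the transposon reads (SD, n = 3). The BEL/Pao group took 11.6% ± 0.604 with 7 elements, of which ROO alone held 8.29%. The copia group took 6.74% ± 0.335 with 5 elements, mostly COPIA with 5.18%.

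Levels within a class ran over orders of magnitude. Gypsy-group elements had a median of 64.1 RPKM and a highest of 1755 RPKM, while TIRANT was at 0. Jockey- and I-clade elements had a median of 20.2 RPKM, with a lowest of 0.628 in DOC4. DNA transposons had a median of 12.3 RPKM, and 17 of the 19 were below 100 RPKM. The only foldback element, FB4, averaged 24.2 RPKM. Of the 2 Helitron-type elements, which move by rolling-circle replication, HELITRON1 averaged 4.64 and DNAREP1 1.27 RPKM. Of the 4 elements left unclassified by name, M4DM averaged 78.6 RPKM, and TLD1, TLD2 and TLD3 were near or at 0.

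**Figure D2:**
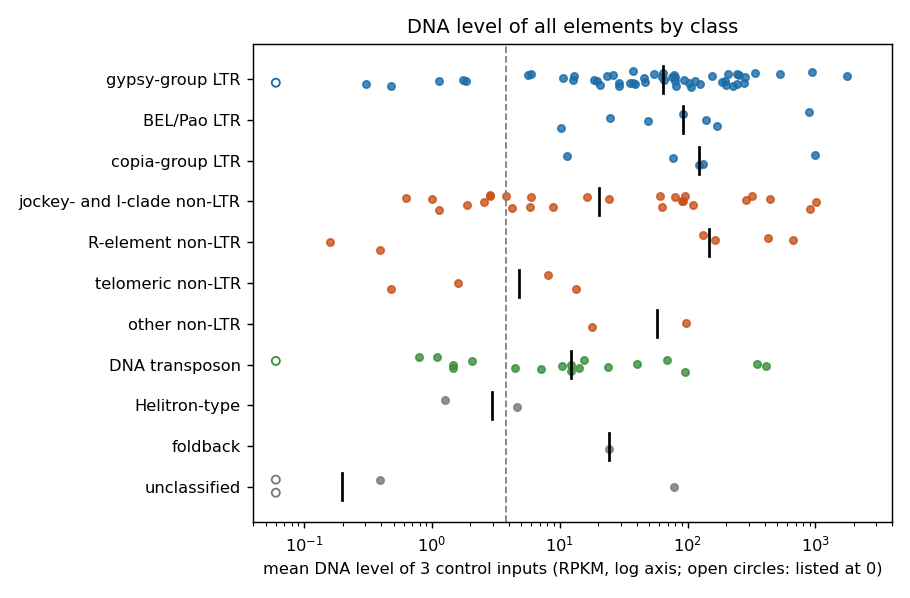
Mean DNA level of the 3 control inputs for each of 129 elements, on a log axis in RPKM, by class; the black bar is the class median, open circles at the left edge are elements listed at 0, and the dashed line is 3.76 RPKM. All classes but BEL/Pao, copia, foldback and other non-LTR have elements left of the line.

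Several named families held abundant elements beside rare relatives, and others did not. Among 16 elements with a gypsy name, means ran between 0.305 RPKM (GYPSY9) and 1755 RPKM (Gypsy1), with a median of 19.03. FW stood at 1009 RPKM, FW3 at 2.85 and FW2 at 1.89. DOC stood at 905 RPKM and DOC6 at 443, against 0.628 for DOC4. Jockey stood at 287 RPKM and JOCKEY2 at 1.004. ROO stood at 888 RPKM and ROOA at 10.2, and the P-related PROTOP_A, PROTOP and PROTOP_B at 350, 69.1 and 15.6. In contrast, COPIA, Copia1 and COPIA2 were all above the median element (989, 122 and 76.9 RPKM), and TC1 and TC1-2 were both low (10.4 and 12.3). The sources used here do not say how reads matching more than 1 consensus were assigned, so levels of near-identical relatives are uncertain where reads could be split between them.

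The R elements, which live in ribosomal DNA arrays or are relatives of elements that do, were abundant with rare exceptions. R1 averaged 662 RPKM, DMRT1B 422, R2 162 and DMRT1A 131. DMRT1C and R1-2 were at 0.389 and 0.160 RPKM. All 4 abundant R elements were highest in control input 1, and the class took 8.55% of transposon reads there, against 6.76% and 7.23% in control inputs 2 and 3.

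The telomeric elements HeT-A (HETA), TART and TAHRE, which extend fly chromosome ends in place of telomerase, were scarce. TART had 15.9, 12.7 and 11.4 RPKM in control inputs 1, 2 and 3. HETA had 9.26, 7.72 and 7.19 RPKM. The scarcer TART_B1 averaged 1.61 ± 0.259 and TAHRE 0.479 ± 0.292 RPKM (SD, n = 3). All 4 had their highest value in control input 1, and together they made up 0.284% of transposon reads. HOBO, a DNA transposon with its own dysgenesis system, averaged 24.03 ± 2.71 RPKM, below the median element.

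A list of 16 elements commonly reported as Piwi targets in OSC, all of the gypsy group, held 22.3% ± 1.19 of transposon reads (SD, n = 3). Their median was 145 RPKM, against 37.6 over all 129 elements, and 6 of the 16 were among the top 20. GYPSY was the highest at 931 RPKM, then STALKER4, DM297, BLOOD, DM176 and DM412. ZAM averaged 26.0 ± 0.972, GTWIN 29.0 ± 3.44 and GYPSY5 19.5 ± 1.18 RPKM, each below the median element. IDEFIX averaged 54.6 ± 1.09 RPKM (SD, n = 3 each). TIRANT was listed at 0. For comparison, 9 elements reported mostly in the germline held 11.3% ± 0.078 of transposon reads with a median of 35.5 RPKM, and DOC, BLASTOPIA and the I element were the highest of them.

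An element was called nearly absent when its mean was under 10% of the median element, that is under 3.76 RPKM. There were 27 such elements, and together they took 0.0990% of the transposon reads. They comprised 6 gypsy-group elements, 7 of the jockey and I clades, 2 R elements, 2 telomeric elements, 6 DNA transposons, 1 Helitron-type element and 3 unclassified ones. None of the 7 BEL/Pao and 5 copia-group elements was among them. FW3 was just inside the threshold at 2.85 RPKM and G3 just outside at 3.81.

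Of these 27, 4 had no read in any of the 7 inputs: TIRANT, TLD1, TLD3 and Transib-N1. TIRANT is a gypsy-group element that is known to be missing from some laboratory strains. Its consensus of 8109 bases with 0 reads in 9969629 control reads allows a level of up to 0.0371 RPKM (3 reads over the 3 libraries). It was also at 0 in the RNA, H3K9me3, HP1a and 3 H1 libraries of control cells, and at 0.146 RPKM in their accessibility table. Its Piwi-bound small RNAs were at 22.4 RPM, reads scaled to library size alone. Transib-N1 and TLD1 are short (514 and 196 bases), so that 0 reads allow up to 0.585 and 1.54 RPKM. For TLD3 no value above 0 was found, so its length and the level that 0 reads allow are unknown.

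The other 23 nearly absent elements were read at low counts. R1-2 had 5 reads in all 3 control inputs together, or 0.156 RPKM with an exact 95% Poisson interval of 0.0506 to 0.364. GYPSY9 had 14 reads (0.280 RPKM, interval 0.153 to 0.470) and GYPSY12A 13 (0.572, interval 0.305 to 0.978). DMRT1C had 24 reads and TAHRE 57. The intervals of all 5 lay below the threshold. DOC4, Transib4, JOCKEY2, MARINER2, BS3 and INVADER5 had means between 0.628 and 1.14 RPKM. TRANSIB3, S2, GYPSY8, DMTOM1, FW2, Transib5, HELENA and G5A had means between 1.45 and 2.83 RPKM. TLD2 had 1 read in control input 1 and none in inputs 2 and 3. DMTOM1, of 410 bases, had 8 reads and a Poisson interval of 0.845 to 3.86 RPKM, and G5A had 88 reads and an interval of 2.49 to 3.83 RPKM. Both intervals span the threshold, as do those of 4 elements above it: G3, BS4, LOOPER1 and HELITRON1.

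DNAREP1, the consensus of the INE-1 repeats that are numerous in the fly genome, had 8 reads in the 3 control inputs together. Its levels were 1.74, 0.859 and 1.22 RPKM, with an exact Poisson interval of 0.583 to 2.66 RPKM for the pooled reads. In the accessibility table of control cells the same consensus stood at 153 RPKM, the highest value among the nearly absent elements. In the H3K9me3 library it was at 0. The sources used here do not state how many mismatches the alignment allowed, which sets whether reads of diverged copies are kept.

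The 3 control inputs ranked the elements almost alike, yet differed in level by more than counting error. Over pairs of inputs, knockdown inputs included, Spearman correlations across the 129 elements were between 0.990 and 0.998, given as a description, since elements of a library share its depth and preparation. Among 81 elements with at least 100 reads in each control input, the coefficient of variation had a median of 9.25% and ran between 1.17% (MDG3) and 39.0% (BAGGINS1). A chi-square test of homogeneity of reads over the 3 libraries, with Benjamini-Hochberg adjustment, called 66 of 114 elements with enough reads, or 57.9%. The median statistic was 4.74 times what counting error alone gives. The count rested largely on control input 1: without it the count was 12 of 110, without input 2 it was 65 of 119, and without input 3 it was 62 of 116.

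The 3 elements with the lowest coefficient of variation were all of the gypsy group. MDG3, of the gypsy group, had 194, 195 and 198 RPKM. HMSBEAGLE had 223, 223 and 231 RPKM, and its adjusted chi-square p was 0.17. IDEFIX had 53.3, 55.1 and 55.2 RPKM. The next was DOC, a non-LTR element, at 2.43%. For the first 3 the lowest and the highest of the 3 libraries lay within a few percent of each other.

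The least steady were BAGGINS1, DOC3, DIVER2, G5, DOC6, TART, MAX, G6, Chouto and DMRT1A. BAGGINS1, a non-LTR element, had 25.6, 12.9 and 14.6 RPKM in control inputs 1, 2 and 3. DOC3 had 33.5, 17.9 and 21.5 RPKM. DIVER2, of the BEL/Pao group, had 33.6, 18.6 and 21.3 RPKM. In all 3, control input 1 stood apart above the other two. DOC6 showed the opposite, with 341, 462 and 525 RPKM. Of these 10 elements, 9 were highest in control input 1 and DOC6 alone was lowest there.

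Control input 1 was compared with the mean of inputs 2 and 3 for the 114 elements, as a description. It was higher for 77 and lower for 37, with a median log2 ratio of 0.18. Of 34 non-LTR elements 31 were higher in input 1, with a median of 0.31. The 49 gypsy-group elements divided evenly, 25 up and 24 down (median 0.03). Of 15 elements of the Piwi-target list 11 were lower and 4 higher (median -0.15). Rare elements leaned higher in input 1: 42 of 49 elements below the median level were higher, with a median log2 ratio of 0.31. Of the 65 at or above it 35 were higher, with a median of 0.05. The Spearman correlation of the log2 ratio with level was -0.53.

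Most of the same pattern was read in the knockdown inputs, which share no library with the controls. In this contrast the sample number cannot be told apart from the siRNA target, since each target has a single number. The mean of the Piwi and H1 knockdown inputs of number 1 was set over the mean of the Mael and HP1a knockdown inputs of numbers 2 and 3. The sign was the same as in the controls for 97 of 114 elements (85.1%), and the log2 ratios had a Pearson correlation of 0.76 across elements. Over all 114 elements 72 were higher and 42 lower in number 1 (median 0.10). Non-LTR elements were higher in number 1 for 31 of 34, with a median of 0.29, and the Piwi-target list lower for 13 of 15, with a median of -0.14. DNA transposons did not follow: 8 were higher and 8 lower (median 0.01), against 10 and 6 (median 0.27) in the controls. BAGGINS1 had 23.9 and 24.1 RPKM in the Piwi and H1 knockdown inputs and 25.6 in control input 1. In numbers 2 and 3 it had 11.5 (Mael) and 16.6 (HP1a) RPKM in the knockdown inputs, against 12.9 and 14.6 in the controls. DOC6 had 365 and 338 RPKM in the Piwi and H1 knockdown inputs and 341 in control input 1. It had 466 (Mael) and 550 (HP1a) RPKM in the later numbers, against 462 and 525 in their controls. For both elements the libraries of number 1 lay together and away from the others, whatever the siRNA.

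**Figure D3:**
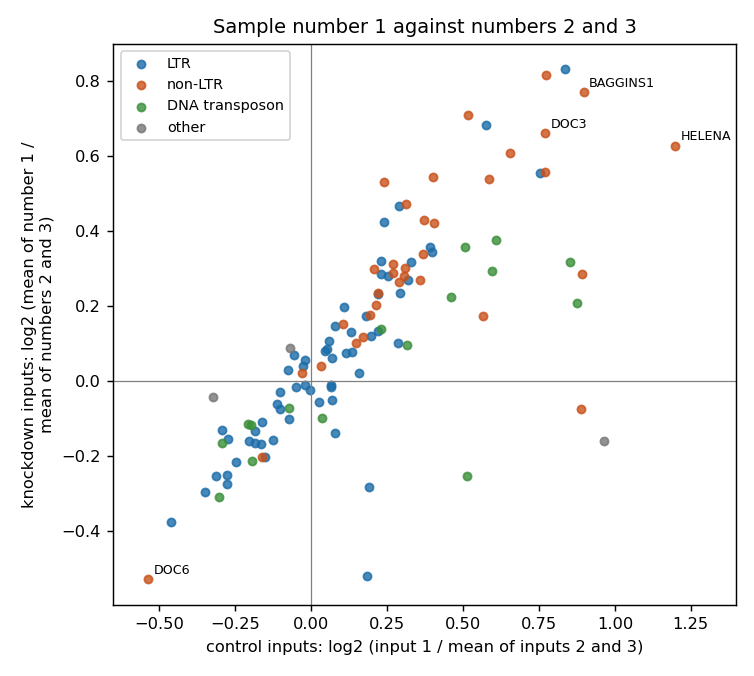
Log2 ratio of sample number 1 to numbers 2 and 3 for 114 elements, in the knockdown inputs (vertical axis) and in the control inputs (horizontal axis), coloured by type of transposon. Points follow the diagonal with a Pearson correlation of 0.76, and 31 of 34 non-LTR elements are above 0 on each axis.

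Across all 7 inputs, an F test of the sample number in limma, in a fit with knockdown and number and with Benjamini-Hochberg adjustment, called 59 of 96 elements, or 61.5%. This test was added after the pattern had been seen, and it reuses the control inputs that showed it, so it is no separate check. DOC6, DMRT1A, BAGGINS1 and DOC3, already named among the least steady in the control inputs, had the lowest adjusted p, 0.0012. ROO had 0.0031. DOC had an adjusted p of 0.14, the I element 0.18 and HMSBEAGLE 0.24. Without control input 1 the count was 36. Pairs of inputs with the same number had a median absolute log2 difference between 0.07 and 0.09 over 5 pairs, against 0.09 to 0.26 over 16 pairs with different numbers. The H1 ChIP libraries of control cells, also numbered 1 to 3, had the same sign of the ratio for 87 of 114 elements, with a Pearson correlation of 0.56. There 84 of all 114 elements were higher in number 1 (median 0.25), with 30 of 34 non-LTR elements and 47 of 61 LTR elements. Of the Piwi-target list 7 of 15 were higher, and of the DNA transposons 7 of 16. What the sample number stands for is not given in the labels, and its part in the differences between control inputs was not tested beyond these counts.

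**Figure D4:**
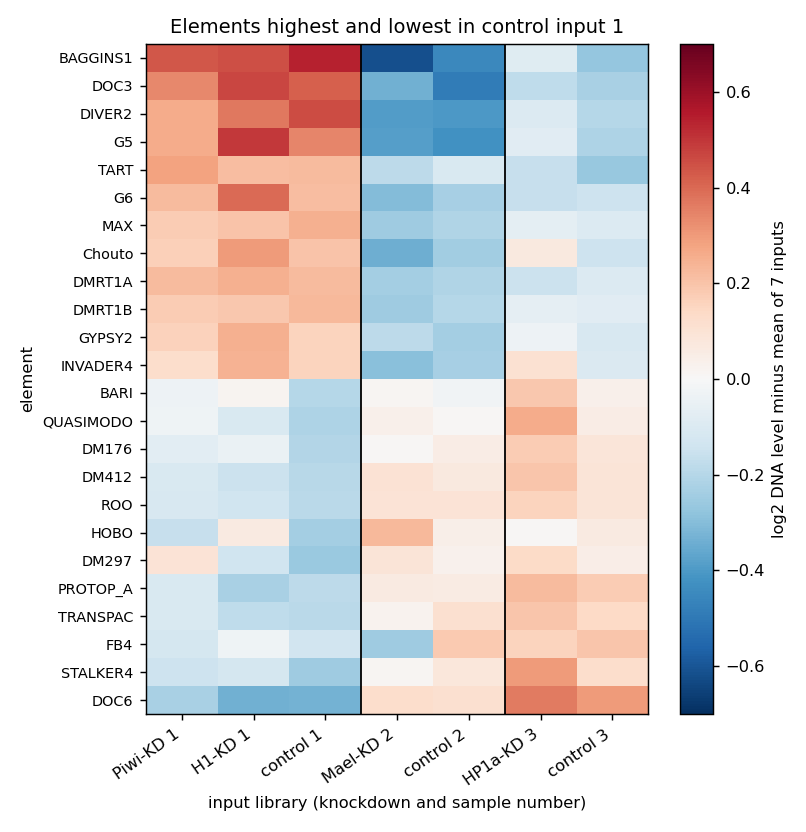
Log2 DNA level of each of the 7 inputs minus the mean of the 7, for the 12 elements highest and the 12 lowest in control input 1 relative to inputs 2 and 3, among elements with at least 100 reads in each control input; within each sample number the knockdown inputs are left of the control. BAGGINS1, DOC3 and DIVER2 are high in all 3 inputs of number 1, and DOC6 is low in them.

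The knockdown inputs were set against the control inputs to ask whether transposon DNA differed when Piwi, H1, Mael or HP1a was depleted. The 4 knockdowns had 1 library each and were pooled as 1 arm, so the test asks whether their average differs from the controls. A change in 1 knockdown alone is diluted in that average, and opposite changes can cancel. The test therefore cannot decide about any single depletion. Transposons took 9.63% (Piwi), 9.67% (H1), 9.03% (Mael) and 9.83% (HP1a) of reads in the knockdown inputs, against 9.39%, 9.04% and 9.50% in control inputs 1, 2 and 3. The ranges overlapped. With limma on log2 of RPKM plus 4.54 and Benjamini-Hochberg adjustment, 0 of 96 elements were called (0%), and 1 had an unadjusted p under 0.05. With the sample number as a block, 0 were called, 9 had an unadjusted p under 0.05, and the smallest adjusted p was 0.15. Fitted log2 differences ran between -0.48 and 0.18, with 95 of 96 within 0.25 of 0, a median of 0.04 and a median standard error of 0.10 (0.04 with the block). By sign, 79 were above 0 and 17 below. These signs are from the fit without the block, where number 1 gives both the Piwi and H1 knockdown inputs but a single control. With the block some signs changed: Gypsy1 went from 0.02 to -0.02 and DMRT1B from 0.03 to -0.03, while DOC6 went from -0.05 to 0.04. A p that misses the threshold does not show that levels were equal, and the standard errors bound what could be seen.

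In the fit without the block, the single element under 0.05 before adjustment was S, a Tc1/mariner-type DNA transposon. It had 10.9 (Piwi), 9.26 (H1), 9.60 (Mael) and 9.32 (HP1a) RPKM in the knockdown inputs, against 14.1, 11.5 and 11.3 in the control inputs. All 4 knockdown values were below all 3 control values, and the log2 difference was -0.23 (SE 0.09, limma adjusted p = 0.95), or -0.25 with the block (SE 0.06, adjusted p = 0.15). The most negative difference, -0.48, was that of GYPSY6A (limma adjusted p = 0.95), a consensus of 420 bases with 56 reads in the 3 control inputs together. It had 8.06, 11.7, 6.10 and 5.02 RPKM in the Piwi, H1, Mael and HP1a knockdown inputs, against 17.8, 8.51 and 11.5 RPKM in the control inputs, and the groups overlapped. Within each sample number, however, every knockdown input was below its control, and the fit with the number as a block gave -0.57 (SE 0.12, limma adjusted p = 0.15). In the block fit INVADER6 had the same adjusted p with a difference above 0, 0.15 (SE 0.03, limma adjusted p = 0.15). The others under 0.05 there before adjustment were MDG1, BARI, GYPSY12, QUASIMODO and BURDOCK, all above 0, and ROOA, below 0.

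For the 15 elements of the Piwi-target list with reads, the DNA of the Piwi knockdown input was set beside that of control input 1, which has the same number. It was higher for 12 and lower for 3, with a median log2 ratio of 0.04, against 63 higher and 51 lower and a median of 0.01 over all 114 elements. The 2 libraries were within 10% of each other for 11 of the 15, and for 87 of the 114. GYPSY had 1020 RPKM in the Piwi knockdown input, against 989 in control input 1. DM412 had 227 RPKM in the Piwi knockdown input, against 213 in control input 1. The highest ratio of the list, and of all 114 elements, was that of DM297, an LTR element of the gypsy group, with a log2 ratio of 0.35. DM297 had 312 RPKM in the Piwi knockdown input, against 244 in control input 1. Its value in the Piwi knockdown input was near those of numbers 2 and 3, which were 311 (Mael) and 321 (HP1a) RPKM in the knockdown inputs, against 298 and 301 in the controls. QUASIMODO had 202 RPKM in the Piwi knockdown input, against 177 in control input 1, and MDG1 had 190.4 RPKM in the Piwi knockdown input, against 171 in control input 1. The lowest ratio was that of STALKER3, a consensus of 372 bases with 56 reads in control input 1, which had 31.5 RPKM in the Piwi knockdown input, against 38.9 in control input 1. The H1 knockdown input, also of number 1, was above control input 1 too in DM176 (238 against 214 RPKM), QUASIMODO (192 against 177) and MDG1 (187 against 171). In STALKER3 (35.3 against 38.9 RPKM) and GTWIN (29.2 against 32.9) it was below. Control input 1 itself was below the mean of inputs 2 and 3 for 11 of the 15. Whether the lean belongs to the Piwi knockdown was not tested. These are single libraries, so the differences have no replicate check.

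The other readouts of control cells were set beside the DNA level, with Spearman correlations across all 129 elements as a description; the points of an assay share 1 library. The ChIP libraries ranked elements much as the inputs did: 0.989 to 0.996 for the 3 H1 libraries, 0.98 for HP1a and 0.97 for H3K9me3, the histone mark of silent heterochromatin. Accessibility by ATAC-seq, which cuts open chromatin, had 0.88. Poly(A)+ RNA had 0.55 and Piwi-bound small RNAs, in RPM, 0.52. A low RNA level in bulk cells does not separate fewer expressing cells from less RNA per cell.

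Abundant DNA went with very different RNA levels. COPIA had 23623 RPKM of RNA, 23.9 times its DNA level in the same unit. Gypsy1 had 2827 RPKM of RNA, 1.61 times its DNA level, and BLOOD 572 RPKM, 2.08 times. R1 had 0.857 RPKM of RNA with 662 RPKM of DNA, and BARI 0.403 RPKM with 412.5. FW and GYPSY had 15.8 and 36.2 RPKM of RNA. Elements at the top of the DNA order thus ranged from the highest RNA level of the table to levels under 1 RPKM. G, a non-LTR element with 79.5 RPKM of DNA, had 0 reads of RNA.

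Small RNAs also varied widely among elements of like DNA level. Their median was 5.14 RPM among the 27 nearly absent elements and 78.4 RPM among the other 102. GTWIN, a Piwi target of the gypsy group, had 29.0 RPKM of DNA and 6390 RPM of small RNA per kilobase of consensus, the most of all elements. GYPSY, with 931 RPKM of DNA, had 3406 RPM of small RNA per kilobase, and DOC, with 905 RPKM of DNA, had 4044. R1, with 662 RPKM of DNA, had 4.998 and BARI, with 412.5, had 2.58 in the same unit.

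Among the 27 nearly absent elements, RNA had a median of 0.535 RPKM, against 3.81 RPKM among the other 102, and 4 of the 27 exceeded 10 RPKM of RNA, against 34 of the 102. These 4 were DMTOM1 with 54.5 RPKM, TART_B1 with 22.7, MARINER2 with 22.3 and DNAREP1 with 17.0. Their DNA means were between 1.10 and 1.86 RPKM. TART_B1 also had 1408 RPM of small RNA, and JOCKEY2, with 1.004 RPKM of DNA, had 1079. In ATAC-seq 14 of the 27 exceeded 10 RPKM, against 96 of the 102. In H3K9me3 1 of the 27 exceeded 10 RPKM (HELENA, 12.2) and in HP1a none did, against 95 of the 102 in each. Since the inputs hold 1 to 168 reads for these elements where any was found, ratios to DNA level rest on few reads and are not given for them.

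**Figure D5:**
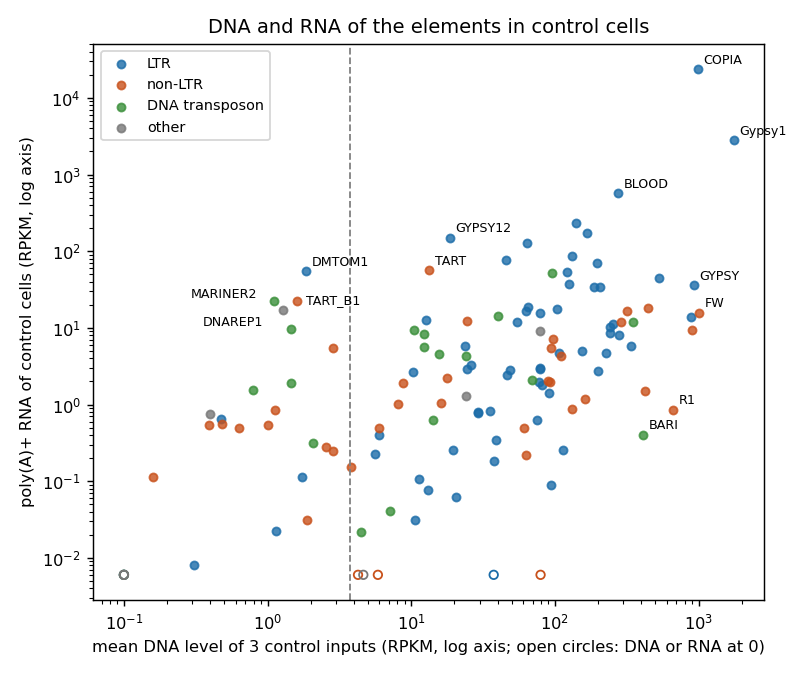
Poly(A)+ RNA of control cells (vertical, RPKM) against mean DNA level of the 3 control inputs (horizontal, RPKM), both on log axes, for 129 elements; open circles mark elements at 0 in RNA or DNA, placed at the lower or left edge (the 4 at 0 in both share 1 circle), and the dashed line is 3.76 RPKM. COPIA is the highest in RNA at 23623 RPKM, R1 and BARI lie low at the right, and 4 elements left of the line exceed 10 RPKM of RNA.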

How the data were processed

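The control inputs were the 3 samples labelled siEGFP input, and 4 knockdown inputs and the other assays of control cells were set beside them. ATAC-seq has 1 deposited column for 2 samples. The authors deposited RPKM for RNA, ATAC, ChIP and input and RPM for small RNA, units that the sources used here do not name. Both were deduced from the values: 1 length per element and 1 read total per column gave whole reads for 3356 of 3356 nonzero RPKM values (868 of 868 in the inputs; tolerance 0.05). Reads were aligned with Bowtie 1.0.1 after cutadapt, with build dm3, per the submitters' processing notes. Which reads the totals count and how multiple matches were treated are not given in the sources used here.

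Computed here were means and SDs, chi-square tests of reads (elements with at least 5 expected reads per library; Benjamini-Hochberg at 0.05), exact Poisson intervals (95%), and limma 3.58.1 in R 4.3.3 on log2(RPKM + 4.54), the pseudocount being 0.1 of the median nonzero value, without the 25% of elements lowest in mean (33 of 129; 96 kept). Other steps used Python 3.11.15 and scipy 1.17.1. Fold changes on this scale understate changes of low elements. Input libraries with the same sample number deviated together (correlations of 0.76, 0.77, 0.64 and 0.66 between knockdown and control inputs). The numbers were therefore taken as pairing the samples. Libraries of numbers 2 and 3 also deviated together: 0.55 for HP1a with control 2 and 0.26 for Mael with control 3. Correlations of number 1 with another number were all negative, between -0.78 and -0.42. Deviations were taken from the mean of the controls or of the knockdowns and sum to 0, so negative values are partly built in. These signs therefore do not show how far number 1 stood apart. In median absolute log2 difference, control input 1 was 0.26 from input 2 and 0.21 from input 3, against 0.09 between inputs 2 and 3. Tests were tried on simulated data. The named elements are the 20 highest, every nearly absent one, each class's highest and lowest, the 10 with the largest coefficient of variation, those called in a test, and the Piwi-target list; called elements and that list are given by counts with examples. MDG3, HMSBEAGLE, G, GYPSY6A, INVADER6, GYPSY12, BURDOCK, the elements near the threshold and members named beside a relative were added after their values were seen. Members, classes and lists were chosen with earlier results of these data known. Alternatives covered summaries, inputs left out, thresholds, totals, pseudocounts, scalings and the sample-number block. Transposon consensus sequences and copies per cell were not analysed here.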

Additional observations from a re-analysis of the deposited data

How the results depend on the processing

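The transposon share of reads stayed between 9.21% and 9.44% under the median, all 7 inputs and each control input left out. The number of nearly absent elements was 27 and ran between 22 and 36 under other thresholds, a minimum of 50 reads, all 7 inputs or an input left out. Elements differing among control inputs beyond counting error numbered 66, and 60 to 66 under other totals and filters, but between 12 and 65 with a control input left out; the 12 came without control input 1, and the cause was not tested. Elements differing by sample number (59) numbered between 36 and 68 with an input left out, 36 without control input 1, and between 51 and 67 under other settings, all chosen after seeing the data. No element was called between knockdown and control inputs under any alternative, the replicate block included (0 called); the block was run for this comparison alone. The 78 element levels and class shares were held against the SD of the 3 control inputs. With 3 values, the median and the mean with an input left out always lie within 1 SD of the mean. Those settings could therefore not fail and say nothing on stability. Under the transposon-sum scaling all 78 stayed within 1 SD. With all 7 inputs 75 did and 3 moved further. Levels of DMTOM1, BS3, TLD2, DMRT1C and R1-2, with 1 to 24 reads, moved over 1.5 times. Depth limits the rarest elements: 0 reads allow up to 0.0371 RPKM for TIRANT but 1.54 RPKM for TLD1.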
